A study of Mus musculus with 6 samples.

Results

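Genes of mesenchymal transition and of contractile cells were followed in newborn mouse lenses with expression arrays. The set was 10 genes: Acta2, Tagln, Vim, Fn1, Tnc, Tgfbi, Snai2, Zeb1, Zeb2 and Twist1. Every probe set annotated to 1 of these symbols and to no other was used, which gave 18 probe sets of 22626 tested, and 10 genes of 12393 on the array. Lens RNA came from Le-AP-2alpha conditional mutants, which target Tfap2a (Tcfap2a in the labels), the gene of transcription factor AP-2alpha, and from wild-type littermates. Each group had 3 arrays, all of lenses from postnatal day 0, with cDNA made by a linear amplification kit. The samples are described as biological triplicates, but the labels give neither the Cre driver, the deleted part of the gene, the strain nor the number of animals in a sample, and do not say whether the littermates carry Cre or the conditional allele. The p-values below therefore reflect the variation among these 6 samples alone.

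In an epithelial to mesenchymal transition, epithelial cells lose E-cadherin junctions and take up a fibroblast-like form. Transcription factors of the SNAI, ZEB and TWIST families repress epithelial genes, and TGF-beta signalling is a common trigger. In the lens the same programme is known from fibrosis after injury and from some forms of cataract, where epithelial cells make alpha smooth muscle actin, transgelin, fibronectin and other matrix proteins. Vimentin differs from the other markers in that healthy lens epithelium and young fibre cells already make it. Macrophages, vascular smooth muscle and the mesenchyme around the eye also make several of these proteins. In whole lens RNA, a change in the number of cells of a type and a change in RNA per cell cannot be told apart.

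Promoter sequence from RefSeq (build GRCm38.p6) was held for 6 of the 10 genes, namely Acta2, Vim, Tnc, Tgfbi, Zeb2 and Twist1, as 10 annotated starts. The 250 bases before each start were searched on both strands for 3 motifs: the CArG box bound by serum response factor, the AP-2 motif GCCNNNGGC and the E-box CACCTG, which SNAI and ZEB proteins bind. A CArG box was counted where CC and GG flanked 6 bases of which at least 5 were A or T. Acta2 and Vim are shown because Acta2, on chromosome 19, held the CArG boxes and both held an AP-2 motif. Capitals mark the motif matches, and each sequence runs 5′ to 3′ on the gene's strand.
Acta2, chr19:34255374-34255623, minus strand: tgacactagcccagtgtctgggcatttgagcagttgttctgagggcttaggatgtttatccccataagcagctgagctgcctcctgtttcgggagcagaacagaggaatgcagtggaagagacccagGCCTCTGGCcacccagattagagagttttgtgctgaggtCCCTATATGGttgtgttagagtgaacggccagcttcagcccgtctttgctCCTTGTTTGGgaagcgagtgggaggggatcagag
Vim, chr2:13574061-13574310, plus strand: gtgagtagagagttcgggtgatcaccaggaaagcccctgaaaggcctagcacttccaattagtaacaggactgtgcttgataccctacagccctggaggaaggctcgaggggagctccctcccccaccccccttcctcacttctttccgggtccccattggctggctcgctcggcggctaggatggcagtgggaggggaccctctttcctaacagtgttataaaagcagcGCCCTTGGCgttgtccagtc

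Positions are counted from the start given by RefSeq. The 2 CArG boxes of Acta2 began at -84 and -34, and its AP-2 motif GCCTCTGGC at -123. The AP-2 motif of Vim, GCCCTTGGC, began at -20. Zeb2 held GCCAAAGGC in the windows of 2 annotated starts, which overlap. CArG boxes were found in 1 of the 6 genes, AP-2 motifs in 3 and the E-box in 0. Over all 32851 promoters of the table, 8.59% held a CArG box in the same window, 13.7% the AP-2 motif and 17.2% the E-box. The counts are per gene and the shares per promoter. Some genes have several starts, so counts and shares do not compare directly. A match describes letters and is not a binding site shown in these lenses.

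No gene of the set passed the test. limma called 0 of the 18 probe sets and 0 of the 10 genes at an adjusted p under 0.05, against 0% of all probe sets and 0% of all genes, and the adjusted p of each of the 18 probe sets was 0.999. The mean was higher in mutants for 8 of the 10 genes by their brightest probe set, against 47.8% of all genes, and lower for Vim and Zeb2. The median log2 difference, mutant minus wild type, was 0.22 over the 10 genes and -0.01 over all genes. Without mutant replicate 2 the median over the 10 genes was 0.08, with 6 of them higher. Only Tnc, which was dim, had an unadjusted p under 0.05, 1 of 18 probe sets against 3.28% of all probe sets. The mutant and wild-type arrays did not overlap for 1 probe set higher in mutants (Tnc), where 3.74% of all probe sets did so, and for 1 lower (the second probe set of Acta2), where 4.61% did so.

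Facts of the whole series that touch these genes were as follows. The median log2 level of an array lay between 5.19 and 5.32, and a probe set with a mean below the median probe set, 5.26, is called dim here. Such were 8 of the 18 probe sets, and all probe sets of Tnc, Snai2 and Twist1. Wild-type replicate 1 stood apart: its correlation with another array (Pearson, over probe sets) was 0.926 to 0.945, while pairs of the other 5 arrays reached 0.974 to 0.985. Mutant replicate 2 had the highest level of leukocyte markers, given below. The 3′ minus 5′ log2 signal of the Gapdh controls, a measure of RNA quality and amplification, was 0.755 to 1.39 in mutants and 0.727 to 1.2 in wild types. Tfap2a, the targeted gene, had higher means in mutants on each of its 3 probe sets, by log2 differences of 0.36 to 1.57. The probes are not placed relative to the deletion, so this does not check the labels. The newborn lens was recognisable: by the mean over all 6 arrays, 7 of the 7 measured fibre markers and 6 of the 7 lens epithelium markers were above the median probe set.

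**Figure D1:**
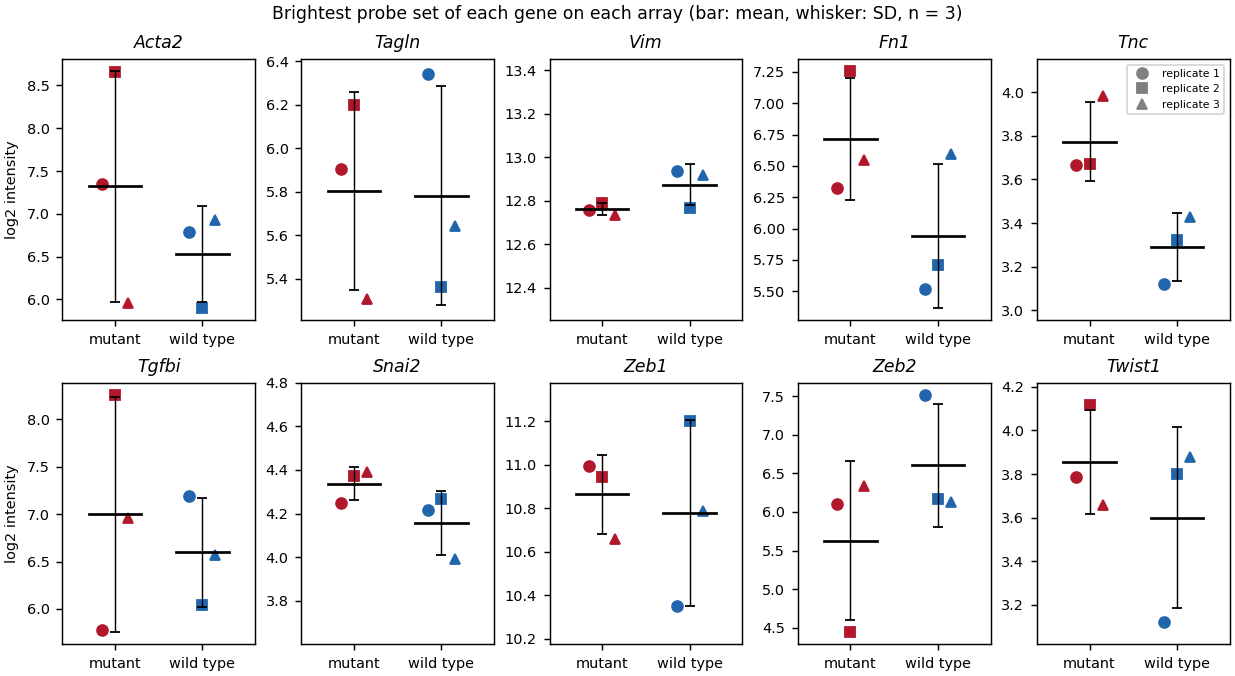
Log2 intensity of the brightest probe set of each of the 10 genes on every array, mutants on the left and wild types on the right of each panel, with the mean (bar) and SD (whisker, n = 3), on a vertical axis that differs between panels. Only for Tnc do the groups not overlap, and Acta2 and Tgfbi have their highest value, and Zeb2 its lowest, in mutant replicate 2.

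The contractile genes showed a wide spread and no common shift. Acta2, alpha smooth muscle actin, is the marker of myofibroblasts and vascular smooth muscle. Its brightest probe set read 7.34, 8.66 and 5.96 (log2) in mutants 1 to 3, against 6.79, 5.90 and 6.93 in wild types 1 to 3. Mutant replicate 2 was above every other array, while mutant replicate 3 lay below 2 of the 3 wild types. Mutants averaged 7.32 ± 1.35 and wild types 6.54 ± 0.56 (log2, SD over 3 arrays). The difference was 0.79 ± 0.68 (log2, SE) with a 95% interval of -0.84 to 2.41. Without mutant replicate 2 it was 0.12, and without mutant replicate 3 it was 1.46. The Gapdh 3′ minus 5′ signal, at 1.07, 1.39 and 0.755 in mutants and 1.07, 0.727 and 1.2 in wild types, was likewise highest in mutant replicate 2 and lowest in wild-type replicate 2. The Actb 3′ minus 5′ signal was 1.79, 2.16 and 1.25 in mutants and 1.54, 1.24 and 2.17 in wild types, highest in wild-type replicate 3 and lowest in wild-type replicate 2. The part of RNA quality in the Acta2 values was not tested.

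The second probe set of Acta2 did not follow the first. It was dim, at 2.91, 2.99 and 2.87 in mutants and 3.16, 3.18 and 3.14 in wild types, so that every mutant array was below every wild type. The difference was -0.24 ± 0.16 (log2, SE), with a limma adjusted p of 0.999. The brightest probe set carries the suffix that the array's maker gives to probes shared by several transcripts, and the actin genes are close relatives, so its signal may not all come from Acta2. The other muscle actins were dim: Acta1 averaged 2.69 in mutants and 3.17 in wild types, Actg2 2.81 and 2.91, and Actc1 3.08 and 3.02 (log2).

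Tagln encodes transgelin, an actin-binding protein of smooth muscle that often rises together with alpha smooth muscle actin. It read 5.91, 6.20 and 5.31 in mutants, against 6.34, 5.36 and 5.64 in wild types. The groups overlapped fully, with the highest value in wild-type replicate 1. The log2 difference was 0.02 ± 0.34 (SE), with a 95% interval of -0.81 to 0.85, and its sign turned with median centring (-0.04), with quantile normalisation (-0.02) and when any of 4 single arrays was left out (lowest -0.19).

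The wider contractile programme also showed no common direction. Of 25 other contractile and smooth muscle genes, all measured and 14 of them above the median probe set, 12 had a higher and 13 a lower mean in mutants, with a median log2 difference of -0.04 and 0 calls. Among the higher, the lowest p belonged to Tagln3, a transgelin of neurons, at 1.16 ± 0.58 (log2 difference, SE), and Tagln2, at 0.49 ± 0.29. Among the lower, it belonged to Des, the muscle intermediate filament desmin, at -0.67 ± 0.29 and dim, and the tropomyosin Tpm2 at -0.80 ± 0.42. Tagln3 read 7.46 to 8.52 in the mutants, and 5.57, 7.51 and 7.50 in wild types 1 to 3, with wild-type replicate 1 well below all other arrays. Srf, the factor that binds CArG boxes, differed by 0.17.

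**Figure D2:**
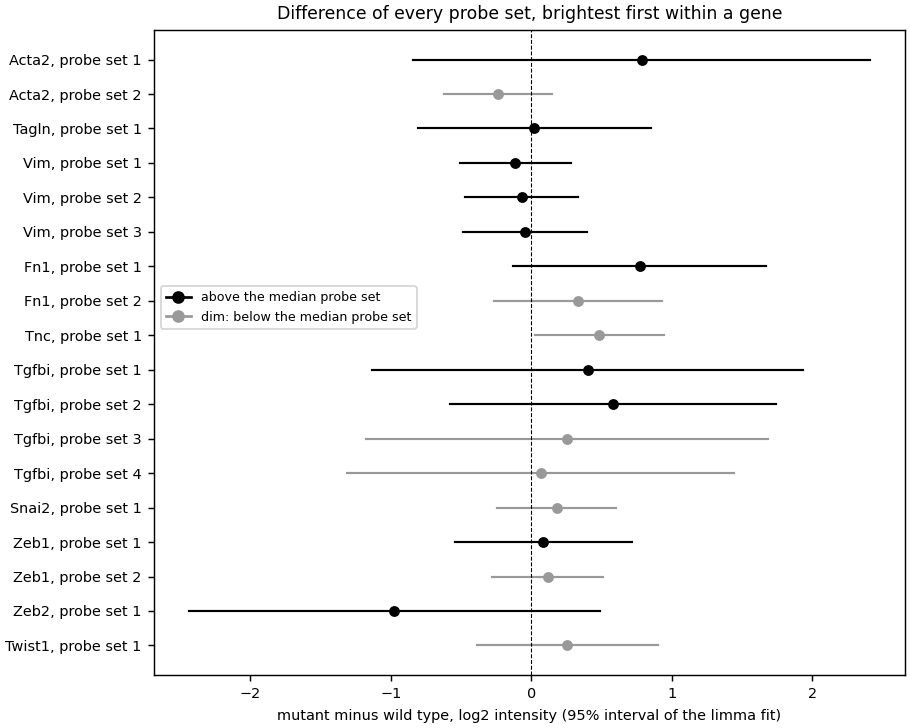
Difference of each of the 18 probe sets, mutant minus wild type on the log2 scale, with the 95% interval of the limma fit; probe sets of a gene run from brightest to dimmest and grey marks dim ones. The interval of Tnc alone lies to one side of 0, at 0.02 to 0.94, and those of Vim are the narrowest among the bright probe sets.

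Vim was bright and near even between the groups. Vimentin is the intermediate filament of mesenchymal cells and of the lens itself. The brightest of its 3 probe sets read 12.76, 12.79 and 12.73 in mutants and 12.94, 12.77 and 12.92 in wild types. The log2 differences of the 3 probe sets were -0.11, -0.07 and -0.05, each with a mean slightly lower in mutants and each within its SE, which was 0.16 to 0.18. The 95% interval of the brightest was -0.51 to 0.28. These levels lie close to the top of each array, whose maximum was 13.90 to 13.97, and 2 of the 3 Vim probe sets are of kinds whose probes can match more than 1 transcript.

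Genes listed as partners of vimentin filaments had lower means in mutants. Those measured were Bfsp1, Nes, Gfap, Cryab and Plec, of which Cryab and Plec do not encode intermediate filament proteins. All 5 measured genes of 7 listed were lower, with a median log2 difference of -0.58 against -0.01 over all genes, and 0 were called. Without wild-type replicate 1, 4 were lower and the median was -0.45. With mutant replicate 2 left out as well, 3 were lower and the median was -0.39. Bfsp1, the beaded filament protein filensin of fibre cells, averaged 12.14 ± 0.20 in mutants, against 12.79 ± 0.29 in wild types, without overlap. For every other measured gene of this partner list the groups overlapped. Of 7 measured lens fibre markers, which include Bfsp1, 6 had lower means in mutants, with a median log2 difference of -0.15 and 0 calls. The median was -0.04 without wild-type replicate 3. Without wild-type replicate 1 it was -0.28, with all 7 lower. The summed intensity was 15.62 to 15.72 (log2) in mutants and 15.76 to 15.94 in wild types. Dnase2b, a DNase by which fibre cells clear their nuclear DNA, had the lowest p of that list, with no overlap, at -1.44 ± 0.41 (log2 difference, SE). The one fibre marker with a higher mean was the water channel gene Mip, at 0.03 ± 0.29. The dim glial filament gene Gfap differed by -0.60 ± 0.30 (log2, SE).

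The matrix genes had higher means in mutants. Fn1, fibronectin, is laid down by cells in transition and by fibroblasts. It read 6.33, 7.26 and 6.55 in mutants, against 5.52, 5.71 and 6.60 in wild types. Each mutant was above wild-type replicates 1 and 2, and wild-type replicate 3 lay among the mutants. The difference of 0.77 ± 0.38 (log2, SE) was 1.71-fold, with a 95% interval of -0.13 to 1.67. It ranged from 0.50 without mutant replicate 2 to 1.10 without wild-type replicate 3. With array weights it was 0.22, but the weight was 5.65 for wild-type replicate 3, and 0.22 and 0.57 for wild-type replicates 1 and 2. The second, dim probe set averaged 3.48 ± 0.39 in mutants and 3.15 ± 0.16 in wild types, a difference of 0.33 ± 0.25, and was also highest in mutant replicate 2.

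Tnc encodes tenascin-C, a matrix glycoprotein of healing tissue. It read 3.67, 3.67 and 3.98 in mutants and 3.12, 3.32 and 3.43 in wild types, all well below the median probe set. Each mutant array was above each wild type. The difference of 0.48 ± 0.19 (log2, SE) was 1.4-fold and had a limma adjusted p of 0.999. Leaving out single arrays gave 0.38 to 0.55. As the groups did not overlap, leaving out 1 array could not turn the direction. With 16 added to each intensity before the logarithm the difference was 0.20.

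Tgfbi encodes the TGF-beta induced protein, a secreted adhesion protein abundant in the corneal stroma. Its brightest probe set read 5.78, 8.26 and 6.95 in mutants and 7.19, 6.04 and 6.57 in wild types. Mutant replicate 2 was the highest and mutant replicate 1 the lowest of all 6 arrays, so the mutant values enclosed the wild types. All 4 probe sets were highest in mutant replicate 2, at 8.26, 6.46, 5.99 and 5.69. Of the 4, 2 were above the median probe set. All but the second are of kinds whose probes can match more than 1 transcript, so their agreement may not be independent. The log2 difference of the brightest was 0.40 ± 0.64 (SE), and the other 3 differed by 0.58, 0.25 and 0.07. Without mutant replicate 2 the difference of the brightest was -0.23, and without mutant replicate 1 it was 1.01.

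The cell surface receptors of these matrix proteins showed no common shift with all 6 arrays. Of 13 listed integrin and syndecan genes 12 were measured, 4 with a higher and 8 with a lower mean in mutants, with a median log2 difference of -0.04 and 0 calls. Without mutant replicate 1, 7 of the 12 were higher and the median was 0.08. Without wild-type replicate 1, 3 were higher and 9 lower, and the median was -0.15. With mutant replicate 2 left out as well, the counts were the same and the median was -0.25. Itga5, the main fibronectin receptor chain, averaged 6.32 ± 0.55 in mutants, against 6.71 ± 0.48 in wild types. The laminin receptor chain Itga3 was lower on every mutant array than on every wild type, at a difference of -0.72 ± 0.31 (log2, SE), and Itgb5 differed by -0.54 ± 0.34. Among the higher, Itga8, which was dim, differed by 0.22 ± 0.33 and Itgb1 by 0.26 ± 0.60. Itgb1 read 7.42 to 7.61 in mutants, and 5.89, 8.39 and 7.55 in wild types 1 to 3.

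**Figure D3:**
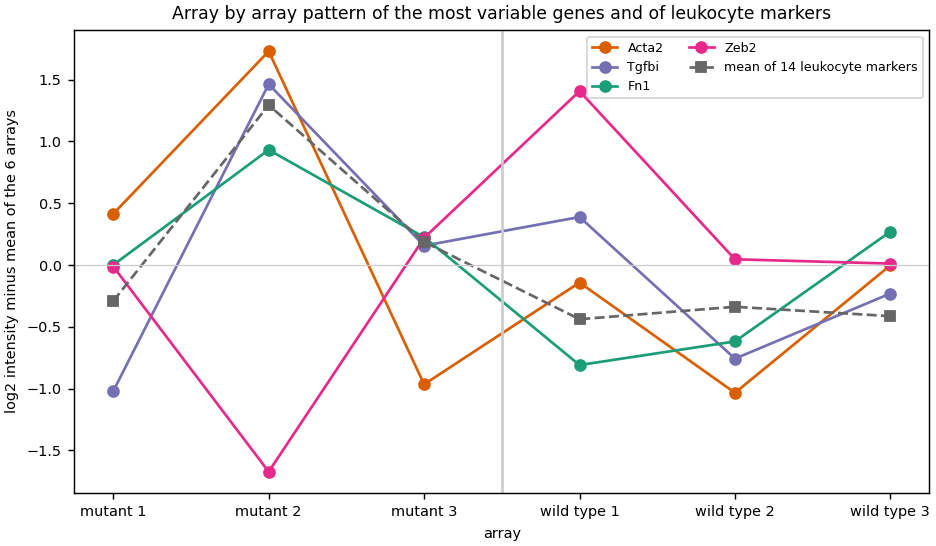
Log2 intensity minus the mean of the 6 arrays for Acta2, Tgfbi, Fn1 and Zeb2, with the mean of 14 leukocyte markers (dashed), for mutants 1 to 3 and then wild types 1 to 3. Acta2, Tgfbi, Fn1 and the leukocyte mean peak in mutant replicate 2, where Zeb2 has its lowest value; Zeb2 peaks in wild-type replicate 1.

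Of the transcription factors, Zeb1 was bright and showed no difference beyond its spread. ZEB1 represses E-cadherin in many epithelia. Its bright probe set read 10.99, 10.94 and 10.66 in mutants and 10.35, 11.2 and 10.79 in wild types. The wild types held both the highest and the lowest value. The log2 difference was 0.09 ± 0.26 (SE), with a 95% interval of -0.54 to 0.71, and it was -0.13 without wild-type replicate 1. The other probe set lay near the bottom of the range, at 2.53 to 2.62 in mutants and 2.39 to 2.55 in wild types.

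Zeb2, which acts with SMAD proteins and is needed for lens development, had the largest difference in size among the 10 genes and the least even one. It read 6.10, 4.44 and 6.33 in mutants, against 7.52, 6.16 and 6.13 in wild types. The other 4 arrays lay between 6.10 and 6.33, with mutant replicate 2 below them and wild-type replicate 1 above. Mutants averaged 5.63 ± 1.03 and wild types 6.60 ± 0.80 (log2, SD). The difference was -0.98 ± 0.61 (log2, SE), with a 95% interval of -2.44 to 0.49. The difference was -0.38 without mutant replicate 2, -0.52 without wild-type replicate 1 and 0.07 without both.

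Snai2 and Twist1 were dim throughout. Snai2, which encodes the zinc finger repressor SLUG, read 4.25, 4.37 and 4.39 in mutants and 4.22, 4.27 and 3.99 in wild types, a log2 difference of 0.18 ± 0.18 (SE). Only mutant replicate 1 fell within the wild-type range. Twist1, a basic helix-loop-helix factor of cranial mesenchyme, read 3.78, 4.12 and 3.66 in mutants and 3.12, 3.80 and 3.88 in wild types, a difference of 0.25 ± 0.27. Its difference was 0.01 without wild-type replicate 1 and -0.12 when mutant replicate 2 was left out as well. The related factors Snai1 and Snai3 were dim too, at log2 differences of -0.20 and -0.35.

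The repressor partners of SNAI and ZEB proteins were all measured above the median probe set, 16 of 16. Of these 10 had a higher and 6 a lower mean in mutants, with a median log2 difference of 0.25 and 0 calls. Ezh2, the methyltransferase of Polycomb complexes, differed by 0.50 ± 0.27 (log2, SE) and the E-box factor Tcf12 by 0.33 ± 0.22. Among the lower, the E-box factor Tcf3 differed by -0.60 ± 0.56 and Ctbp2, a corepressor of ZEB proteins, by -0.28 ± 0.32. Tcf3 read 4.64 to 5.29 in mutants, and 4.26, 6.25 and 6.24 in wild types 1 to 3. Ctbp2 read 7.59 to 7.94 in mutants, and 8.77, 7.72 and 7.79 in wild types 1 to 3, so its lower mean rested on wild-type replicate 1. The list mean was 8.11 to 8.37 in the mutants, and 7.57, 8.37 and 8.31 in wild types 1 to 3, so that wild-type replicate 1 alone was below the mutants. Without it, 8 of the 16 were higher and the median was -0.01.

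TGF-beta input genes had higher means in 11 of 15, with a median log2 difference of 0.23 and 0 calls. The receptors Tgfbr2 and Tgfbr1 differed by 0.68 ± 0.44 and 0.50 ± 0.34 (log2, SE), the coreceptor Eng by -0.69 ± 0.61 and the dim ligand gene Tgfb3 by -0.10 ± 0.25. The mean over this list was 6.80 to 6.93 in mutants, and 6.31, 6.91 and 6.87 in wild types 1 to 3. In this mean wild-type replicate 1 was below all other arrays, and the other wild types lay within the mutant range. Without wild-type replicate 1, 8 of the 15 were higher and the median was 0.02.

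Other mesenchymal genes had higher means in 16 of the 25 measured of 28 listed, against 47.8% of all genes, with a median log2 difference of 0.25 and 0 calls. The direction rested on wild-type replicate 1: the list mean was 6.68, 6.78 and 6.53 in mutants and 6.18, 6.53 and 6.58 in wild types. Without that array 11 of the 25 were higher and the median was -0.03. The collagens Col5a2 and Col1a1 had the lowest p among the higher, Col5a2 at 7.66, 7.17 and 6.92 in mutants and 6.82, 6.78 and 6.13 in wild types, without overlap. Col1a1 read 8.10, 6.86 and 6.40 in mutants and 4.84, 5.90 and 6.67 in wild types. Mutant replicate 1 was highest for both, which is not the array in which Acta2, Tgfbi and Fn1 peaked. Among the lower, Pdgfra, a growth factor receptor of lens epithelium and mesenchyme, differed by -0.61 ± 0.28 (log2, SE) and Snai3 had the next lowest p. Cdh2, N-cadherin, differed by 0.50 ± 0.66 on its brighter probe set and by -0.18 ± 0.32 on the other. The brighter read 10.76 to 10.86 in mutants, and 8.68, 11.09 and 11.14 in wild types 1 to 3. Its higher mean in mutants thus rested on wild-type replicate 1, as the other wild types lay above every mutant. On the other probe set wild-type replicate 1 was the highest array, at 10.57.

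Epithelial genes that the transition represses showed no common direction. Of the 22 listed, all measured but only 5 above the median probe set, 10 had a higher and 12 a lower mean in mutants, with a median log2 difference of -0.02. Unadjusted p under 0.05 was reached by 1 higher gene, the splicing factor Esrp1, and by 1 lower gene, the E-cadherin gene Cdh1, against 2.13% and 1.72% of all genes. Esrp1 differed by 0.96 ± 0.36 and the adhesion protein gene Epcam by 0.55 ± 0.24 (log2, SE), both dim. Cdh1 read 7.55, 7.68 and 7.12 in mutants and 8.21, 9.14 and 8.89 in wild types, so each mutant lay below each wild type. Its difference was -1.29 ± 0.30, with a limma adjusted p over all probe sets of 0.999. The dim claudin gene Cldn3 had the next lowest p among the lower and differed by -0.35 ± 0.24. Lens epithelium markers, which include Cdh1 and Pdgfra, had lower means in 4 of 7, with a median log2 difference of -0.61 and 0 calls. Without wild-type replicate 1, all 7 were lower and the median was -0.49. The summed intensity of the list was 12.86 to 12.99 (log2) in mutants, and 12.33, 13.15 and 13.00 in wild types 1 to 3. Besides Cdh1, the amino acid transporter gene Slc38a3 had the lowest p among the lower, with no overlap, at -1.04 ± 0.40 (log2 difference, SE). The higher ones of lowest p were Pax6, a regulator of eye development, at 0.47 ± 0.47 and the connexin gene Gja1 at 0.20 ± 0.23. The part of epithelial cell number in the Cdh1 value was not tested.

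**Figure D4:**
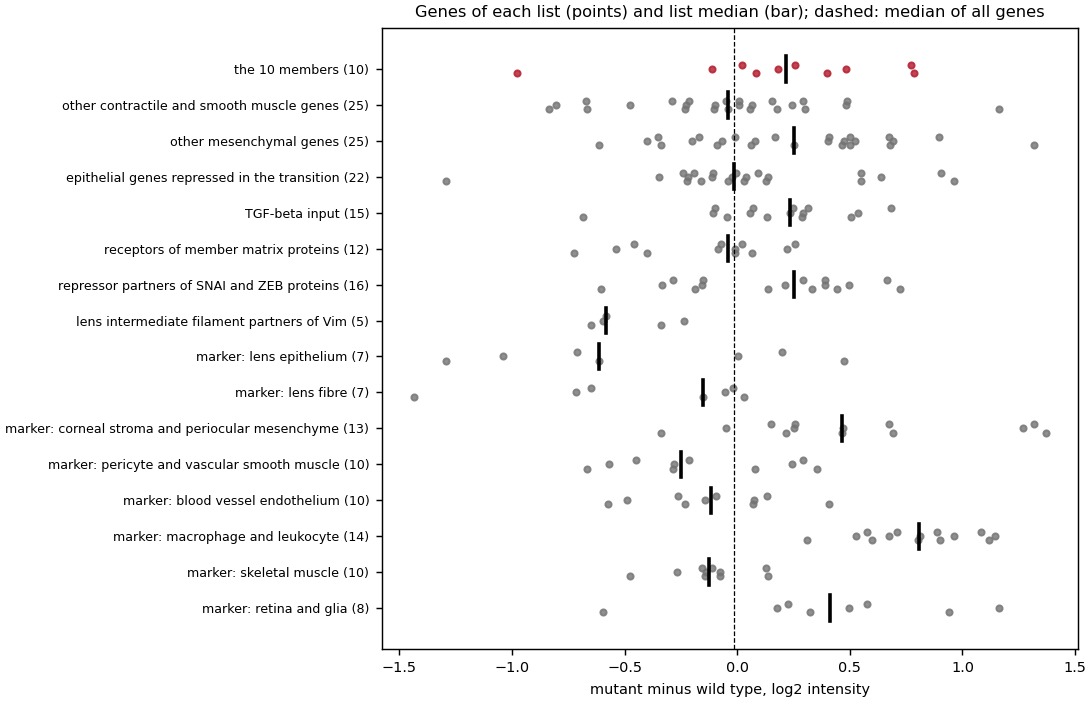
Log2 difference, mutant minus wild type, of every measured gene (points) of the 10-gene set and of the other lists, with the list median (bar) and the median of all genes (dashed). The 10 genes spread from -0.98 to 0.79 around a median of 0.22, and the 14 leukocyte markers all lie above 0.

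Markers of other cell types were set beside these values, and 0 genes of any marker list were called. All 14 macrophage and leukocyte markers had higher means in mutants, with a median log2 difference of 0.81. Their summed intensity was 10.12, 12.18 and 10.59 (log2) in mutants 1 to 3 and 10.04 to 10.45 in wild types. Mutant replicate 2 carried much of this: without it the median was 0.28, with 14 of 14 still higher. Of the 14 markers 9 were above the median probe set. The leukocyte phosphatase gene Ptprc and the lysosomal protein gene Cd68, both dim, had the lowest p, at 1.08 ± 0.36 and 0.90 ± 0.37 (log2 difference, SE). The part of these cells in the values of Acta2, Tgfbi and Fn1 was not tested.

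Corneal stroma and periocular mesenchyme markers, a list that holds Twist1 itself, had higher means in 11 of 13 measured, with a median log2 difference of 0.46. Without mutant replicate 1, where their summed intensity was highest, 9 were higher and the median was 0.25. The sum was 8.99 to 10.04 (log2) in mutants and 8.48 to 9.34 in wild types. Kera, the proteoglycan gene that defines corneal keratocytes, was dim at 2.65 to 3.11 over all arrays. Col6a1, a collagen VI chain, had the lowest p, at 1.27 ± 0.20 (SE) and a limma adjusted p over genes of 0.591. The forkhead factor gene Foxc2 had the lowest p among the lower, at -0.34 ± 0.41. Col1a1, Col1a2, Col3a1, Col5a2, Postn and Foxc2 are also among the other mesenchymal genes above, so these lists are not separate observations.

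Pericyte and vascular smooth muscle markers had higher means in 4 of 10, with a median log2 difference of -0.25 (-0.11 without mutant replicate 3). Their summed intensity was 11.01 to 11.40 (log2) in mutants and 10.57 to 12.20 in wild types. The smooth muscle myosin Myh11 and calponin Cnn1, which define that lineage, were dim in both groups. Cnn1 differed by 0.29 ± 0.20 (log2, SE) and the adhesion protein gene Mcam by 0.24 ± 0.45, while Des and the receptor gene Notch3 (-0.57 ± 0.27) had the lowest p among the lower.

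Endothelial markers had a median log2 difference of -0.12, which was 0.04 without wild-type replicate 2. Of these Esam and Cdh5, both junction genes, differed by 0.41 ± 0.31 and 0.13 ± 0.27 (log2, SE), and Pecam1 and Cldn5 by -0.49 ± 0.35 and -0.58 ± 0.44. Skeletal muscle markers were all dim, with a median of -0.12 that was 0.02 without wild-type replicate 1. Myog and Myh8 differed by 0.14 ± 0.20 and 0.13 ± 0.28, and Acta1 and Tnnc2 by -0.48 ± 0.25 and -0.27 ± 0.20.

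Retina and glia markers had higher means in 7 of 8, with a median log2 difference of 0.41. It was 0.19 without wild-type replicate 1, with 6 higher, and 0.16 without mutant replicate 2, with 5 higher. The photoreceptor factor gene Crx differed by 1.16 ± 0.58 (log2, SE) and the glutamine synthetase gene Glul by 0.50 ± 0.26, while Gfap was the one with a lower mean. Whether carried-over tissue contributed to the matrix and transcription factor values was not tested.

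The array in which a gene was highest or lowest was uneven over the set, as it was over all genes. By the brightest probe set, 4 of the 10 genes (Acta2, Fn1, Tgfbi and Twist1) were highest in mutant replicate 2, where 13.5% of all genes had their highest value. Wild-type replicate 1 held the lowest value of 4 genes (Fn1, Tnc, Zeb1 and Twist1) and the highest of 3 (Tagln, Vim and Zeb2), where 25.8% and 33.0% of all genes did so. Fn1 and Twist1 thus had their highest value in the first of these arrays and their lowest in the second, and Zeb2 the reverse.

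**Figure D5:**
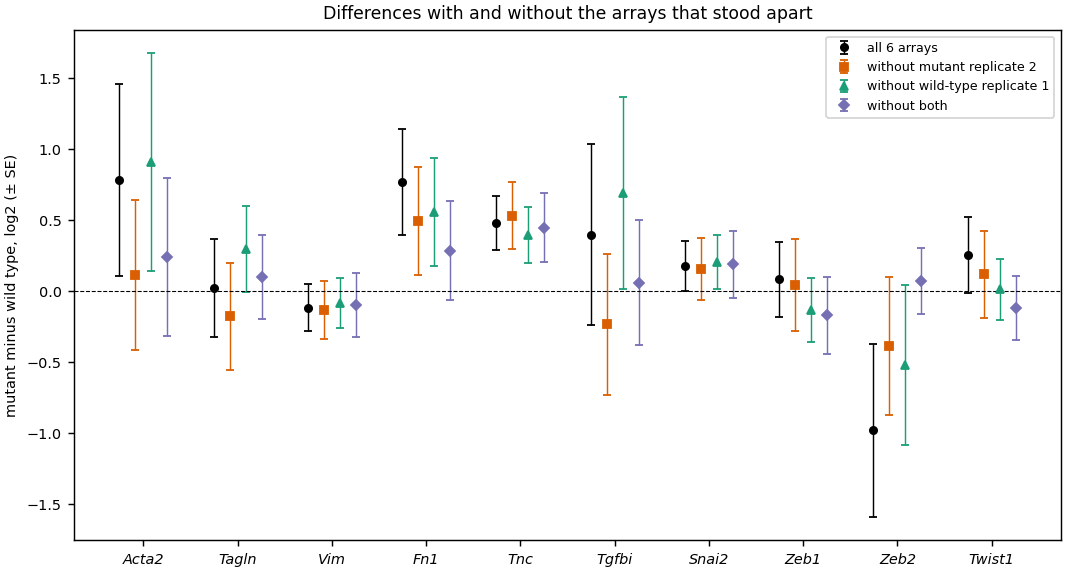
Log2 difference of the brightest probe set, mutant minus wild type, with its SE, from all 6 arrays, without mutant replicate 2, without wild-type replicate 1 and without both. Acta2, Fn1, Tgfbi and Zeb2 move toward 0 without both arrays, while Tnc, Snai2 and Vim stay near their values with all arrays.

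With both of these arrays left out, Tnc differed by 0.45, Snai2 by 0.19 and Vim by -0.10 (log2). Acta2 differed by 0.24, Fn1 by 0.29 and Tgfbi by 0.06. The median over the 10 genes was 0.09, with 7 of them higher, and 0 were called.

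The genes whose pattern over the 6 arrays lay nearest to the most variable members were then listed. Likeness was the root mean square difference of log2 profiles after the mean of the 6 arrays was removed, over 6867 genes above the median probe set. For Acta2 these were Tyrobp, a signalling adaptor of myeloid cells, at 0.23, Tcfl5 at 0.36 and Col9a3 at 0.38. Tyrobp read 6.13, 7.85 and 5.36 in mutants and averaged 5.56 ± 0.45 in wild types, and the 6 arrays stood in the same order as for Acta2. For Tgfbi they were Laptm5, a lysosomal membrane protein of blood cells, at 0.27, Sct at 0.29 and Cbarp at 0.32. Tyrobp and Laptm5 are both on the leukocyte list. For Zeb2 they were Gm3716 at 0.16, Cyfip2 at 0.31 and Ccdc86 at 0.31, each highest in wild-type replicate 1 and lowest in mutant replicate 2.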

How the data were processed

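The authors deposited linear intensities, with 1 value for each probe set and array. RMA is named per the submitters' processing notes, without version or settings, and no source used here states how the linear scale was reached. RMA models background and equalises the arrays' distributions, which can compress differences of dim probe sets. The log2 of each intensity was taken with no pseudocount; 0 columns were left out. Names came from the platform annotation, by Entrez ID (20351 of 20380 probe sets with 1 symbol matched RefSeq; 0 symbols changed). No build is given for the array, so the only positions reported are those of RefSeq promoters (GRCm38.p6).

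R 4.3.3 and limma 3.58.1 (lmFit, eBayes) fitted mutant against wild type on all 22626 non-control probe sets, with Benjamini-Hochberg adjustment and a threshold of 0.05. A gene was represented by its brightest probe set, with p adjusted over 12393 genes. Levels are mean ± SD over 3 arrays, a number that limits precision. The fit was tested on simulated data. Members and lists were chosen with earlier results of these data known. Named genes were all members, then from other lists the 2 of lowest p in each direction, besides Cdh1, Cdh2 and Tfap2a, and the 3 genes nearest in pattern to the 3 most variable members; other genes are named for a role stated beside them. Alternatives were the replicate block, scaling, pseudocount, dim probe sets, prior, array weights, arrays left out, threshold and the mean of probe sets.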

Additional observations from a re-analysis of the deposited data

How the results depend on the processing

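No alternative called a member: all 31 recomputed counts were 0, for the probe sets and for the genes, including those at an adjusted p under 0.1 and with array weights, where 7 genes outside the set passed. Leaving out 1 array gave 0 calls each time, a median difference over the members of 0.08 to 0.31 and 6 to 8 members higher in mutants. With dim probe sets left out, 5 of the 7 remaining members were higher, by construction of the smaller set. Of 147 recomputed differences 11 had the opposite sign, in Tagln, Tgfbi, Zeb1, Zeb2 and Twist1, all within 1 standard error of 0. With the replicate number as a block the median difference over the members was 0.22 and 0 were called. Same-numbered arrays had correlations of -0.07, -0.26 and -0.16 between their deviations from the group means. Pairs with unlike numbers had -0.17 to 0.30. Deviations within a group depend on each other, so these values cannot show whether same-numbered samples share a litter or day. Dim probe sets limit what can be read for Tnc, Snai2 and Twist1. The count of members higher, and the list values with arrays left out, were added after seeing the data.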
